A study of Mus musculus with 6 samples.

Results

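The stefin A cluster is a row of neighbouring mouse genes on chromosome 16 that code for small inhibitors of cysteine proteases. Its members were taken as the non-control probes whose gene name begins with Stfa or is Csta1, Cstdc4, Cstdc5, Cstdc6, BC100530 or BC117090, or whose description names stefin A. By the names in the array files the rule took 5 probes of 5 genes (Stfa1, Stfa2, Stfa3, Stfa2l1 and BC100530, now Cstdc5). With gene names updated through RefSeq accessions it took 8 probes of 7 genes, which adds 2 probes of Csta1, listed in the files as Csta, and 1 of Cstdc4, listed as EG433016. These are 8 of 41174 non-control probes, and 7 of 28307 gene names on the array. No probe was named Cstdc6 or BC117090.

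RNA came from proliferating satellite cells, the stem cells of skeletal muscle, of female mice. One group carried Magic-F1 (+/+), an engineered factor derived from hepatocyte growth factor, and the other was labelled control. The control sample titles carry the term MLC3F, which the labels do not explain, and neither the promoter that drives Magic-F1 nor the age of the mice is given in the sources used here. Each group held 3 samples described as biological triplicates, and each sample was hybridised to 1 Agilent single-colour array.

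Stefins belong to the cystatin superfamily. They lack a signal peptide, stay mainly in the cytosol, and bind tightly but reversibly in the active site cleft of papain-like cysteine proteases such as the cathepsins. In the mouse the ancestral stefin A gene has been duplicated in tandem into a set of close copies, whose transcripts are known from neutrophils and their bone marrow precursors and from skin, and which are not typical products of muscle cells.

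Because the genes are close copies, the probes that read them were compared first. Each probe is 60 bases long, and positions are on mm9 as the array files give them. The sequences below are of the member probes, written 5′ to 3′. Capitals mark the longest run that a probe shares exactly with another probe of the cluster. For the first Csta1 probe only its first 45 bases, all of them shared, are shown.
Csta1, first probe: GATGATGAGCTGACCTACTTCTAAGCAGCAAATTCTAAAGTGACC
Cstdc5: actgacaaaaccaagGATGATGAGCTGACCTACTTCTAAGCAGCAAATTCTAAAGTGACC
Csta1, second probe: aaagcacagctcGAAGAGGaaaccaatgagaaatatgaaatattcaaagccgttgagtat
Stfa1: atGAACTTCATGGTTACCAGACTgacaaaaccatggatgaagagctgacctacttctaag
Cstdc4: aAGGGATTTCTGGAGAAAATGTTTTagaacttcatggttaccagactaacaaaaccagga
Stfa3: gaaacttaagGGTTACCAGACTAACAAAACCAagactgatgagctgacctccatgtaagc
Stfa2l1: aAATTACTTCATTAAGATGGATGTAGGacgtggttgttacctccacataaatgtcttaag
Stfa2: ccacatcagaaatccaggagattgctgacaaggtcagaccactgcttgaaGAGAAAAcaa

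The first Csta1 probe and the Cstdc5 probe share a run of 45 bases, bases 1 to 45 of the former and 16 to 60 of the latter. The array file lists transcripts of both Csta1 and Cstdc5 for the first Csta1 probe, of Stfa1 and Cstdc5 for the Stfa1 probe, and of Stfa2l1 and Stfa2 for the Stfa2l1 probe. The other 5 member probes list transcripts of 1 gene each. The Stfa3 and Cstdc4 probes share 22 bases, and the Stfa1 and Cstdc4 probes 21. The second Csta1 probe and the Stfa2 probe share no run of more than 7 bases with any other probe of the cluster. A signal on the first Csta1, Cstdc5, Stfa1 or Stfa2l1 probe is therefore uncertain as to which copy gave it. Probes were compared only with each other and not with the transcripts of the other copies. A short run therefore does not show that any other probe reads a single copy.

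**Figure D1:**
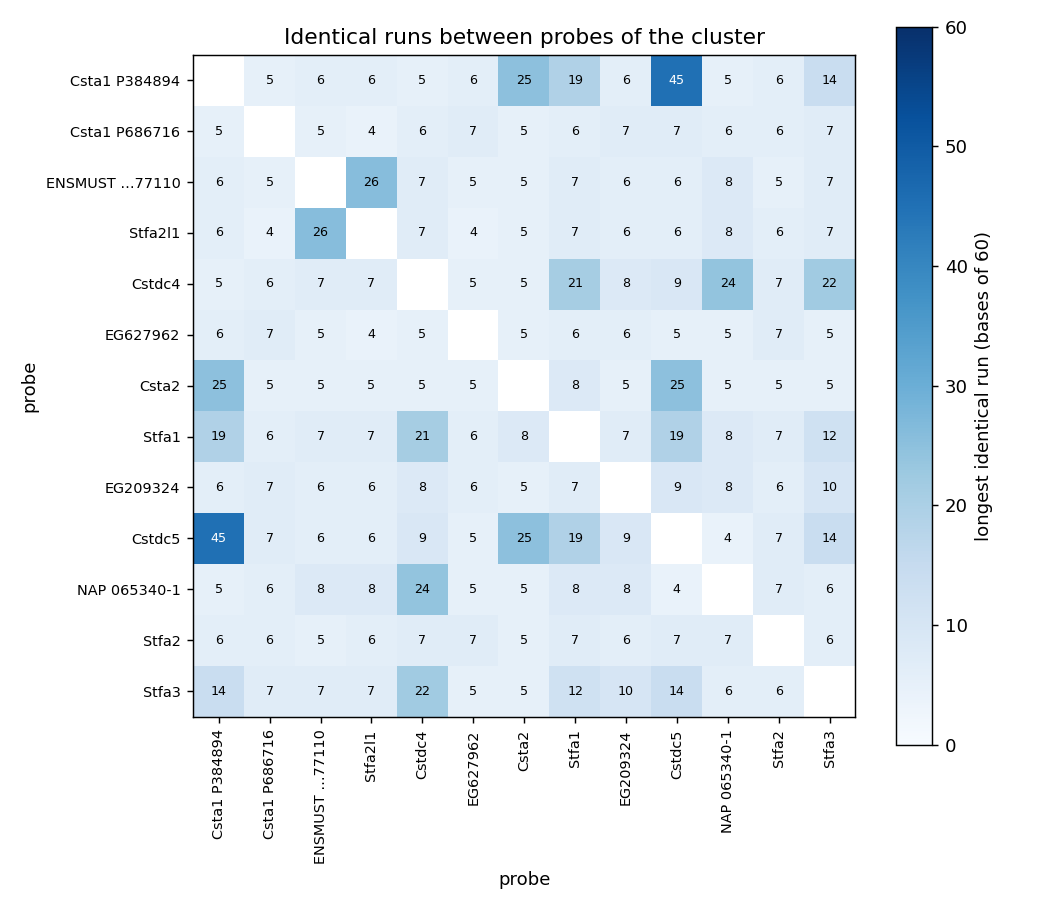
Longest identical run, in bases, between each pair of the 13 probes of the cluster (both axes, in order along the chromosome). The first Csta1 probe (P384894) and the Cstdc5 probe share 45 of 60 bases, and the second Csta1 probe (P686716) shares at most 7 with any other.

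Signals are given as log2 processed signal relative to the array's 75th percentile, so 0 is the level that 75% of non-control spots do not exceed. In the control samples 7 of the 8 member probes were well above background on all 3 arrays, as were 47.3% of all non-control probes. In the Magic-F1 samples none of the 8 was above background on any array. The median log2 difference of the 8 probes, Magic-F1 minus control, was -10.29, against -0.10 over the 21187 probes tested. For 7 of the 8 probes the groups did not overlap and Magic-F1 was lower, against 30.9% of all non-control probes. Of 19460 probes above background on all 3 control arrays, 4.32% were above it on no Magic-F1 array. Over the array 87.7% of the tested probes passed limma's test between the groups. The family was chosen by its large difference in this very contrast, so its values are a description and no test is given for them. Fewer cells of a type and less RNA per cell cannot be told apart in these bulk samples.

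The first Csta1 probe, at chr16:36122294-36122353, read 6.23, 6.28 and 6.26 in control replicates 1, 2 and 3, and -7.64, -7.61 and -7.34 in Magic-F1 replicates 1, 2 and 3. Csta1 is a copy of the gene that in humans is the single stefin A gene, CSTA. The control arrays lay within 0.03 (SD) of each other and every Magic-F1 array lay far below them. Where a group was not above background, the fold is a lower bound, set against the lowest signal that counted as above background on each array. On that basis the Csta1 signal was at least 2989-fold lower in Magic-F1 (log2 difference -13.79).

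The second Csta1 probe, at chr16:36125099-36125158, was not above background on any of the 6 arrays. It read -5.17, -7.12 and -7.19 in control and -7.44, -7.43 and -7.15 in Magic-F1, so the groups overlapped and no fold is given. The 2 probes of Csta1 thus disagreed, and the bright one is the probe whose first 45 bases are those of the Cstdc5 probe.

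The Cstdc5 probe, at chr16:36359525-36359584, read 5.31, 5.35 and 5.59 in control and -7.68, -7.10 and -7.39 in Magic-F1. Cstdc5 is 1 of the copies that is named only for its cystatin domain. Its signal was at least 1670-fold lower in Magic-F1 (log2 difference -12.81).

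The Stfa3 probe, at chr16:36450693-36450752, read 4.95, 5.01 and 5.08 in control and -5.43, -5.91 and -5.69 in Magic-F1. Its Magic-F1 values lay close under the lowest signal that counted as above background (-5.41 to -4.73 over the 6 arrays). The bound was at least 1266-fold lower in Magic-F1 (log2 difference -10.70).

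The Stfa1 probe, at chr16:36285323-36285382, read 3.50, 3.48 and 3.79 in control and -7.67, -7.63 and -7.37 in Magic-F1. The signal was at least 471-fold lower in Magic-F1 (log2 difference -11.15), with control replicate 3 the highest of the control arrays.

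The Stfa2l1 probe, whose ends lie at chr16:36160118-36161876 and so span an intron, read 2.28, 2.32 and 2.51 in control and -7.62, -7.59 and -7.32 in Magic-F1. The bound was at least 202-fold lower in Magic-F1 (log2 difference -9.88). The Cstdc4 probe, at chr16:36188043-36188102, read 1.57, 1.51 and 1.84 in control and -7.56, -7.53 and -7.28 in Magic-F1, at least 122-fold lower (log2 difference -9.09). Both had groups that did not overlap, with control replicate 3 again the highest.

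The Stfa2 probe, at chr16:36405290-36408367 and likewise across an intron, read 0.70, 0.64 and 0.82 in control and -7.54, -7.55 and -7.24 in Magic-F1. That is at least 64.4-fold lower (log2 difference -8.16). Of the 7 probes above background in control, Stfa2 is the one that shares no run of more than 7 bases with any other probe here. It was not compared with the transcripts of the other copies.

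**Figure D2:**
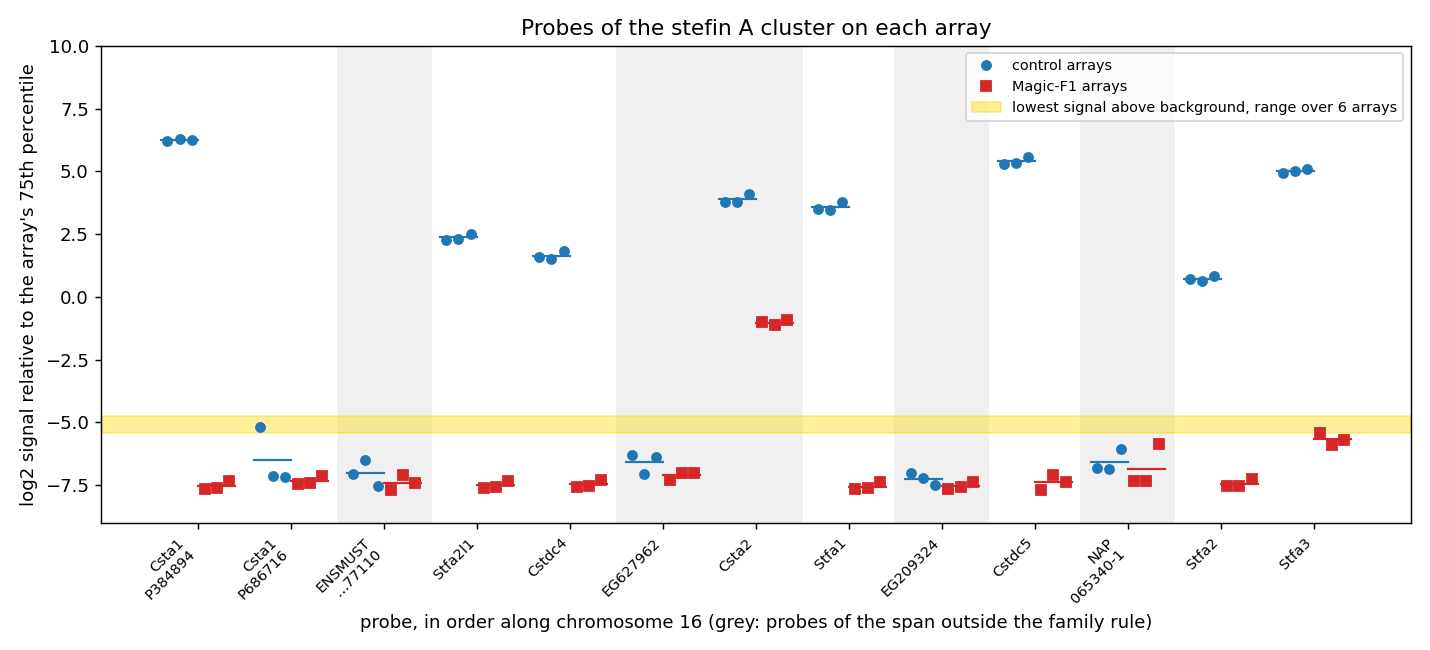
Log2 signal relative to the array's 75th percentile (y axis) of the 13 probes of the cluster in chromosome order (x axis), with 1 point per array, a line at each group's mean, and a band for the lowest signal counted as above background. Of the 8 member probes 7 lie above 0 on the 3 control arrays and below the band's upper edge on the 3 Magic-F1 arrays; on grey, the Csta2 probe lies above the band on all 6 arrays.

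The members varied little within the control group: the SD of a probe's 3 control values was 0.026 to 0.175 for the 7 probes. Control replicate 3 was the highest control array for 6 of the 7, the first Csta1 probe being the exception, against 49.3% of all tested probes. Of 18 tested neutrophil marker genes 12 were also highest there. The Magic-F1 values have no such order to read: on 5 of the 7 probes the processed signal of all 3 Magic-F1 arrays was a surrogate that the scanner software writes for spots at background. The raw differences below that level depend on the background correction. With a normexp correction the log2 differences were -8.84 for the first Csta1 probe, -7.97 for Cstdc5, -7.31 for Stfa3, -6.19 for Stfa1, -5.00 for Stfa2l1, -4.29 for Cstdc4 and -3.45 for Stfa2. Placed at the background floor, the 7 had a median of -8.88.

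The arrays lay on 2 slides, with replicates 1 and 3 of both groups on slide 1 and replicate 2 of both on slide 2. For the first Csta1 probe the log2 difference was -13.73 on slide 1 and -13.89 on slide 2. For Stfa3 it was -10.58 and -10.93, and for Stfa2 -8.15 and -8.18. For these 3 probes the difference was about as large within each slide as over both.

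Between the outer member probes lay 328 kb, in which the array had 5 more probes that the rule does not take. One reads Csta2, a stefin A-like gene listed in the files as 2010005H15Rik. It read 3.80, 3.80 and 4.10 in control and -1.01, -1.14 and -0.93 in Magic-F1, above background on all 6 arrays. The fold, 30.4-fold lower in Magic-F1 (log2 difference -4.92, and -4.45 with normexp), is therefore measured and not a bound. The Csta2 probe shares 25 bases with both the first Csta1 probe and the Cstdc5 probe, shown here because these letters could bind transcripts of all 3 genes.
Csta2, shared run: CTTCTAAGCAGCAAATTCTAAAGTG
The other 4 probes (EG209324, EG627962, ENSMUST00000077110 and NAP065340-1) were not above background on any array, and their groups overlapped.

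The promoters of the 7 genes were set side by side because their probes were low or high together. The 100 bases before each annotated transcription start are shown as RefSeq gives them on GRCm38.p6, in the direction of transcription. Capitals mark the letters TTTAAAACC and GAGGAGGAG, which were picked after the sequences had been seen.
Stfa2l1, chr16:36156711-36156810, plus strand: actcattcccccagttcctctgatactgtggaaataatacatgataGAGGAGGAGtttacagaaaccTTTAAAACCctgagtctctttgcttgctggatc
Cstdc4, chr16:36184112-36184211, plus strand: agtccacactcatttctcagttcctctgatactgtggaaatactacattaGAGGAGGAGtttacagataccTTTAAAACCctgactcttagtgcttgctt
Stfa1, chr16:36277048-36277147, plus strand: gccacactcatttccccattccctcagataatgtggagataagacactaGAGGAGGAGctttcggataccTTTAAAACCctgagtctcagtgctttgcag
Cstdc5, chr16:36367571-36367670, minus strand: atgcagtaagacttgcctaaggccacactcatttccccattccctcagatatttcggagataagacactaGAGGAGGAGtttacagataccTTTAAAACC
Stfa2, chr16:36408364-36408463, minus strand: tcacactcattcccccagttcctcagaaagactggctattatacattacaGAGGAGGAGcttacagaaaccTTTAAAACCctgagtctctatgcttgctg
Stfa3, chr16:36455393-36455492, minus strand: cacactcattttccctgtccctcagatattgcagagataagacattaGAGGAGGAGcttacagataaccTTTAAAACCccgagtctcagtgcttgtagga
Csta1, chr16:36131190-36131289, minus strand: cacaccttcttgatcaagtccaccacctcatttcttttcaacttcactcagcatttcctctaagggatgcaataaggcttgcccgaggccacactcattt

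Stfa2l1, Cstdc4 and Stfa1 are transcribed from the plus strand and the other 4 from the minus strand. The letters TTTAAAACC stood in 6 of the 7 windows of 250 bases before to 50 after the start, searched on both strands, against 0.393% of 32851 RefSeq promoters. They began 29 to 33 bases before the start in 5 genes and 9 before it in Cstdc5. The shorter TTTAAA within it was in 7 of 7 windows (13.2% of promoters), but in Csta1 it stood alone, 230 bases before the start. The TATA box letters TATAAA were in 0 of 7 windows (13.6% of promoters). GAGGAGGAG stood in the same 6 windows (3.37% of promoters), before TTTAAAACC in each.

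The Csta1 window holds neither 9-letter word. The letters CACTCATT, also picked after viewing, were in all 7 windows (1.01% of promoters), 75 to 101 bases before the start in the other 6 genes and 9 before it in Csta1. The annotated start of Csta1 thus lies further upstream in the shared sequence than those of the other genes. Its window ends 50 bases after that start, so the matching place of TTTAAAACC may lie beyond the window and was not searched. Over the 15 pairs of the other 6 genes the aligned parts of the printed sequences were 77.5% to 92.4% identical, with a median of 81.6%. The 8 letters GAGGAAGT, 1 form of a site for the myeloid factor PU.1, were in 0 of 7 windows (3.2% of promoters). Shorter forms of that site were not searched. The C/EBP-like letters TTGCNNAA were in 2 of 7 windows, Stfa1 and Cstdc5 (10.8% of promoters). All these are matches of letters and do not show that a factor binds. The genes are tandem copies, so letters they share are not independent finds. The shares of other promoters beside these counts are therefore no test of enrichment.

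The nearest tested genes on either side were compared next, 5 on each side, with limma and Benjamini-Hochberg adjustment over the whole array. Fam162a, a mitochondrial protein gene, fell most: it read 6.74 ± 0.14 in control and -1.13 ± 0.07 in Magic-F1 (SD, n = 3 each), 233-fold lower (limma adjusted p = 2.29e-08). Ccdc58 lies between Fam162a and the cluster and fell by 2.38 on the log2 scale (limma adjusted p = 9.32e-08). Hcls1, an actin-regulating protein of blood cells at the far end of the other side, rose by 2.74 (limma adjusted p = 1.82e-07).

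Of the 10 flanking genes 7 fell, 2 rose and 1 did not pass the test, against 47.7% lower and 40.6% higher of the 14907 genes tested. Their median log2 difference was -1.42. Parp9, Wdr5b and Kpna1 on the near side fell by 1.83, 1.03 and 0.34, and Kpna1 changed sign with spike-in scaling (0.08). On the far side Eaf2 and Iqcb1 fell by 1.80 and 2.10 and Golgb1 rose by 1.50. A second Eaf2 probe read 0.45 and did not pass (limma adjusted p = 0.083). Cd86, a costimulatory molecule of antigen-presenting cells and the nearest tested gene after Stfa3, had a log2 difference of 0.07 (limma adjusted p = 0.494), while a second Cd86 probe rose by 1.23 (limma adjusted p = 3.31e-05). The first Cd86 probe passed with spike-in scaling (log2 difference 0.50, limma adjusted p = 0.00613) and in the authors' deposited table (0.42, limma adjusted p = 0.00569).

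**Figure D3:**
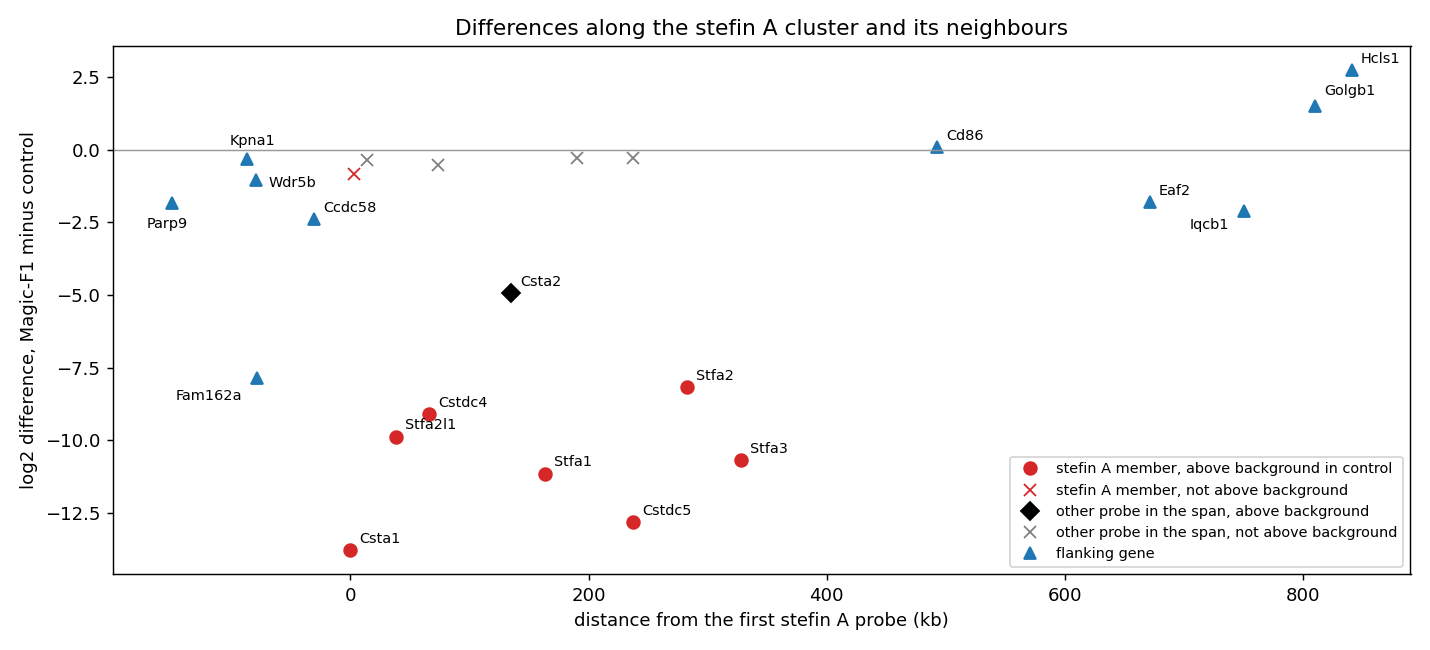
Log2 difference, Magic-F1 minus control (y axis), of the probes in the cluster and of the 10 flanking genes against the distance in kb from the first member probe (x axis). The 7 member probes above background in control lie between -13.79 and -8.16, and the flanking genes between -7.87 (Fam162a) and 2.74 (Hcls1).

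Cysteine cathepsins, the kind of protease that stefins bind, were measured in a list that also holds related genes, among them Lgmn, Tinag and Tinagl1. Not every gene of the list is thus a protease that stefins bind. Of its 21 genes 13 were tested. Of these 10 rose and 3 fell, against 40.6% higher and 47.7% lower of all genes tested, with a median log2 difference of 1.43. With no filter on dim probes the median was 0.05. Ctss (cathepsin S), which trims the invariant chain in antigen-presenting cells, read 4.78, 4.75 and 4.86 in control and 8.62, 8.65 and 8.65 in Magic-F1, 14.3-fold higher (limma adjusted p = 3.09e-08). Its groups did not overlap. The summed linear level of the 13 genes, in units of the array's 75th percentile, was 630 to 648 on the control arrays and 1593 to 1632 on the Magic-F1 arrays.

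Lgmn (legumain, an asparaginyl endopeptidase), Ctsz and Ctso rose by 2.57, 2.18 and 2.01 on the log2 scale. Ctsf, Ctsc (which activates granule serine proteases), Ctsb and Ctsk (the bone matrix protease of osteoclasts) rose by 1.99, 1.43, 1.28 and 0.84. A second Ctsb probe rose by 6.03. Tinag, an inactive cathepsin relative, was not above background in control and was at least 1.46-fold higher in Magic-F1, a call that was lost with normexp background (log2 difference 0.05, limma adjusted p = 0.374). Ctsl (cathepsin L) depended on the scaling, with a log2 difference of 0.11 (limma adjusted p = 0.0483). It was 0.72 with quantile normalization (limma adjusted p = 6.12e-06), 0.53 with spike-in scaling, 0.24 with median scaling and 0.43 in the authors' deposited table, each past the threshold. With slide as a block the call was lost (limma adjusted p = 0.0752). It also missed the threshold when control replicate 1 or 2, or any single Magic-F1 array, was left out (limma adjusted p = 0.0886 to 0.13). Ctsh, Ctsw (a protease of cytotoxic lymphocytes) and Tinagl1 fell by 1.02, 2.01 and 2.42.

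Of 17 other cystatin genes 7 were tested, and 4 rose and 3 fell, against 40.6% and 47.7% of all genes tested. Their median was 0.42, and -0.26 with no filter on dim probes. Cstb (stefin B), the other cytosolic stefin, read 6.27, 6.34 and 6.41 in control and 6.75, 6.77 and 6.76 in Magic-F1, 1.34-fold higher (limma adjusted p = 0.000316). The secreted inhibitor Cst3 (cystatin C) rose by 1.57 on the log2 scale, and Cst6 and Cst7 by 1.56 and 1.28. Cstad fell by 0.79, Fetub by 2.10 and Kng1 by 3.24.

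Serine protease inhibitors and others known from leukocytes made a further list, with 20 of 22 genes tested. Of these 13 were lower, 6 higher and 1 did not pass, against 47.7% lower and 40.6% higher of all genes tested. Their median was -2.27 (-0.89 with normexp). Serpinb10 was at least 22.5-fold lower (log2 difference -6.69), and Serpinb2 and Serpinb1a, an inhibitor of neutrophil elastase, were 50.8-fold and 17.4-fold lower. Pi16 was 14.4-fold lower. These 4 passed limma's test with adjusted p of 1.71e-05 or below.

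**Figure D4:**
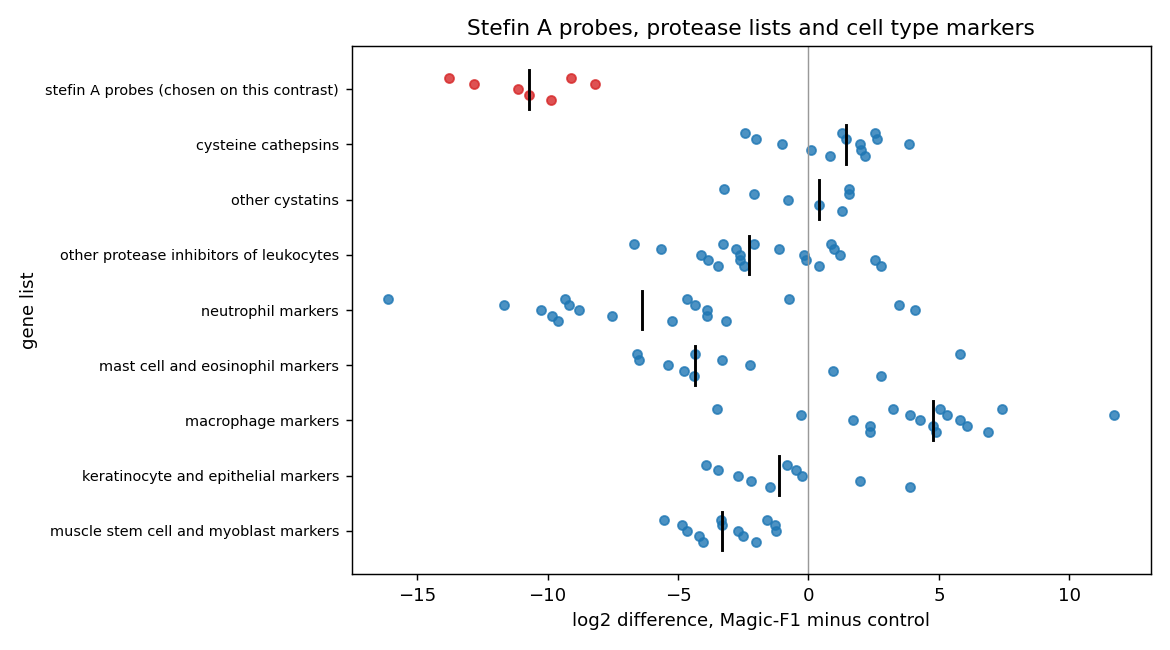
Log2 difference, Magic-F1 minus control (x axis), of the 7 member probes above background in control and of the tested genes of 8 lists (y axis), with 1 point per probe or gene and a black line at each median. Genes at background in a group are drawn at their processed signal, not at a bound. The member probes have a median of -10.70, neutrophil markers -6.37, cysteine cathepsins 1.43 and macrophage markers 4.79.

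Markers of other cell types were compared next, and the lists differed in direction. The counts of each list are set against 47.7% lower and 40.6% higher of the 14907 genes tested. Of 18 tested neutrophil markers 16 were lower and 2, Csf3r and Itgam, were higher, with a median log2 difference of -6.37. That median was -3.47 with normexp, -4.50 with no filter on dim probes and -3.52 over the 8 genes above background on all 6 arrays, of which 6 were lower. Their summed level was 633 to 682 on the control arrays and 8.16 to 8.75 on the Magic-F1 arrays. S100a9 alone made up most of the control sum. All 18 were above background on all 3 control arrays, and 9 of them on no Magic-F1 array. Over the whole array that share was 4.32% of probes. S100a9, a main cytosolic protein of neutrophils, read 8.87, 8.87 and 8.95 in control and -7.36, -6.92 and -7.38 in Magic-F1, at least 18614-fold lower. Chil3 and Camp (cathelicidin), also above background on no Magic-F1 array, were at least 1529-fold and 340-fold lower. Mpo (myeloperoxidase) was above background on all 6 arrays, with a log2 difference of -10.24 (-7.97 with normexp).

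Mast cell and eosinophil markers numbered 11 tested, 8 lower and 3 higher (median -4.36, -0.91 with normexp and -1.99 with no filter), with summed levels of 4.52 to 4.67 in control and 1.54 to 1.75 in Magic-F1. Of the 8 lower genes none was above background on all 3 Magic-F1 arrays: the mast cell protease Cma1 was at least 37.1-fold and the tryptase Tpsb2 at least 9.99-fold lower. The histidine decarboxylase gene Hdc, above background on 1 Magic-F1 array, had a log2 difference of -6.48. The 3 higher genes were Gata2, Siglecf and the eosinophil chemokine receptor Ccr3. By its brightest probe Ccr3 was at least 31.4-fold higher (log2 difference 5.82, and 2.26 with normexp), while a second probe rose by 2.66. Gata2 was the 1 gene of the list above background on all 6 arrays.

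For macrophage markers 15 of 17 were higher and 2 lower (median 4.79), and the sums were 475 to 500.4 in control and 1507 to 1571 in Magic-F1. Cd5l was at least 2329-fold higher, and Cx3cr1, C1qc and Csf1r were 171-fold, 116-fold and 67.6-fold higher. A second Cx3cr1 probe rose by 4.43 on the log2 scale, against 7.42 for the first. The 2 lower genes were Marco and Lyz2. Marco had a mean of 5.37 in control and 1.87 in Magic-F1, 11.3-fold lower. Its log2 difference was -3.50, and it stayed lower with normexp (-3.40) and with spike-in scaling (-3.08). The fall of Lyz2 (-0.30) was less certain. Its second probe rose by 2.97, and the first read 0.33 with quantile normalization and 0.12 with spike-in scaling. Lyz2, at 8.41 to 8.52 in control, made up most of the control sum.

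Muscle stem cell and myoblast markers were lower for 13 of 13 tested genes (median -3.33), with sums of 676 to 715 and 77.6 to 79.7. The receptor gene Fgfr4 and the cadherin gene Cdh15 fell by 5.55 and 4.84 on the log2 scale. Myog and Myod1, factors of the muscle lineage, were above background on all 6 arrays. They were 25.0-fold and 18.5-fold lower in Magic-F1 (log2 differences -4.65 and -4.21). The satellite cell factor Pax7 and the factor Msc were above background on no Magic-F1 array. Both were dimmer in control, with means of -3.09 and -1.49, and were at least 4.58-fold and 13.9-fold lower. Keratinocyte and epithelial markers, which stand for the skin source of stefin A, were lower for 7 of 10 tested genes, higher for 2 and not called for 1 (median -1.14). Their sums were 10.6 to 12.2 in control and 3.45 to 3.64 in Magic-F1. Of the basal keratins Krt5 was at least 9.54-fold lower, and Krt14, above background on 1 Magic-F1 array, had a log2 difference of -3.94. Krt8 was 6.42-fold lower, and the desmosome gene Dsp was at least 5.68-fold higher. Krt10 and Sfn made up most of the control sum. Their log2 differences were -2.20 and -1.46, but their second probes read -0.73 and 0.63. Trp63 read -0.46 and its second probe 0.65. With spike-in scaling 5 of the 10 genes were lower. The part of any of these cell types in the stefin A values was not tested.

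Outside the family, 12854 genes were ranked by the Euclidean distance of their 6 mean-centred log2 values from the median profile of the 7 member probes, and 8 are named. Mpo was closest, at a distance of 0.62. It read 5.89, 5.77 and 5.98 in control and -4.29, -4.43 and -4.37 in Magic-F1, above background on all 6 arrays and 1210-fold lower. That fold depends on the background correction, with a log2 difference of -10.24, and of -7.97 with normexp. Camp followed at 1.17, Rtca at 1.25 and Ms4a3, a marker of granulocyte and monocyte precursors, at 1.42.

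Chil3, Ctsg (cathepsin G, a granule serine protease), Ngp and Chil4 stood at 1.65, 1.69, 1.90 and 2.01. Of the 8 genes 6 were on the neutrophil list, all but Rtca and Chil4. Rtca, an RNA cyclase gene, had a second probe that was higher in Magic-F1 (log2 difference 2.53). The members themselves lay 0 to 3.81 from the profile, with Stfa3 at 0 and the first Csta1 probe the farthest. The median profile was thus that of the Stfa3 probe, and the ranking is by likeness to that single probe. The 6 values are those of the same arrays, so likeness here is mostly the size of the drop between groups. The 7 member probes and 6 of the 8 genes, Mpo and Ctsg excepted, were above background on no Magic-F1 array, so distances and their order rest in part on signals at background.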

How the data were processed

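Cy3-labelled cRNA of 6 samples was read on Agilent arrays (design 014868, 45018 spots). The deposited scanner files hold, per the file headers, intensities from version 10.5.1.1 of Feature Extraction: a processed signal with background removed, not normalized between arrays. The authors also deposited a table of log2 values, used only as an alternative.

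From the scanner files, control spots and outlier flags were dropped, and the array's own 75th percentile was subtracted after taking log2. That percentile was 275 to 292 in control and 341 to 356 in Magic-F1. Between 49.2% and 52.0% of non-control probes were well above background. A probe was tested if it was above background on all 3 arrays of a group (21187 of 41174). RefSeq accessions named 25097 probes and 16077 kept the files' name; a gene's brightest tested probe stood for it. Groups were compared with limma 3.58.1 in R 4.3.3, 2-sided, with Benjamini-Hochberg adjustment across the whole tested table and a threshold of 0.05. Arrays of 1 group correlated at 0.996 or above and arrays of different groups at 0.848 or below. The code was tested on simulated data. Array number limits the precision. Nothing beyond the words biological triplicates says that replicates came from separate animals, so p-values measure the spread between these samples. The source names of all 6 samples end in rep1, and the replicate numbers were read from the sample titles.

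Named were all members, the tested cathepsin and cystatin genes, the 10 flanking genes, up to 4 genes of each other list (called ones first, then by size) and the 8 genes closest in pattern. Csf3r, Itgam, Gata2, Siglecf, Marco, Lyz2, Krt10, Sfn, Trp63, Pax7 and Msc were named after their values were seen. Members and lists were chosen with earlier results of these data known. Promoter sequences are from RefSeq, with all 7 genes matched. Alternatives covered background, scaling, filters, slide, replicate number, left-out arrays, the deposited table and the choice of probe.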

Additional observations from a re-analysis of the deposited data

How the results depend on the processing

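The median log2 difference of the stefin A probes (-10.29) was -5.60 with normexp background, -9.87 with spike-in scaling and -10.06 in the authors' deposited table, and -10.33 to -10.21 with 1 array left out. The 7 member probes above background in control were lower in Magic-F1 in every alternative that gave them a value; a filter for probes above background on all 6 arrays left none of them, and then 8 neutrophil markers (6 lower, 2 higher) and 1 mast cell or eosinophil marker, Gata2, which was higher, were called. Kpna1 (-0.34) turned to 0.084 with spike-in scaling and 0.0078 in the authors' deposited table. Over the whole array 8745 probes were called higher and 9845 lower, against 10734 and 7241 with spike-in scaling, which moved the median of all tested probes to 0.32, and 10487 and 8008 in the authors' deposited table. With 1 array left out 18016 to 18680 probes were called, against 18590 with all arrays. Same-numbered arrays did not deviate together (correlations of -0.003, 0.11 and 0.07), so the numbers were not taken as pairs; with the replicate block 18546 probes were called, and Ctsl was lost (adjusted p = 0.0909). Signal near background limits the dim side of every member's fold to a bound.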
